A study of Mus musculus with 111 samples.

Results

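The leg difference of tenotomised mice was set against the leg difference of casted mice 2 days after the intervention, gene by gene, in gastrocnemius muscle. The arrays were chosen by their titles and comprised 29 of the 111 arrays of the series, from 15 of its 70 mice. Tenotomy gave 5 right and 5 left muscles of 5 mice (animals 7, 8, 10, 33 and 37), and casting gave 10 right muscles and 9 left muscles of 10 mice, so that 5 tenotomy and 9 casting mice had both legs. All mice were male C57BL/6, and the design text gives an age of 8 weeks when the procedure was done. Tenotomy was cutting of the Achilles tendon under ether and ketamine-xylazine, after which the mice moved freely in the cage. Casting held the right hindlimb immobile with the tendon intact, and no anaesthetic is named for it. For levels only, 3 right muscles of sham-operated mice at day 2, in which the tendon was exposed and handled but not cut, and 7 right muscles of naive mice were used as well. Each muscle was hybridised to 1 array.

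The sources conflict on the operated leg of the tenotomy mice. In the design text the cut was made on the right side and left legs were untreated. In the labels of the individual samples it is the left leg that carries the treatment entry tenotomy, and the right one is listed as control. Neither reading was chosen from the values. Every difference below is therefore right minus left: in casting mice this is the cast leg minus the control leg, and in tenotomy mice it is the leg labelled control minus the leg labelled tenotomy. The difference between models is the tenotomy value minus the casting value, and the contrast that follows the sample labels is given near the end. In both models the side goes with the intervention, and the mice of each model were numbered as a separate cohort, so that model and cohort cannot be told apart.

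The gastrocnemius is the main calf muscle and pulls on the heel through the Achilles tendon. A cut tendon removes the resistance the muscle works against and leaves a wound, while a cast stops movement without cutting tissue. Muscle that is no longer loaded loses mass, largely through the ubiquitin-proteasome system, in which E3 ligases such as atrogin-1 (Fbxo32) and MuRF1 (Trim63) mark proteins for degradation by the 26S proteasome. Injured muscle and tendon are entered by monocytes that become macrophages, and fibroblasts there lay down collagen.

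Values are linear signal intensities scaled by the authors, and differences are on the scale of log2(signal + 3.982). A gene was called when its adjusted p was under 0.05 in a limma model with an effect for each animal, over 16029 tested genes. Myh4, the myosin heavy chain of the fastest fibres, had signals from 4044 to 17200 in the 29 arrays, among the highest signals on the arrays. Median signals ran from 16.25 to 23.09, and no pair of arrays was identical. The log2 ratio of the 3' over the 5' probe set of beta-actin, used as a sign of RNA integrity and labelling, was 0.81 higher in the right legs of the tenotomy mice (SD 0.32, 5 of 5 pairs) and differed by -0.000117 in casting mice (SD 0.40, higher in 5 of 9 pairs). These leg differences differed between the models by 0.81 (exact permutation p = 0.0025, two-sided), whereas those of the same ratio for Gapdh differed by 0.0093 (exact permutation p = 0.686). The actin ratio averaged -0.02 in right and -0.83 in left tenotomy legs, and -0.73 in both legs of the casting pairs. The part of RNA quality in the results below was not tested beyond a fit that holds the actin ratio constant. Whether the actin ratio tracks RNA quality in these muscles was not tested. The root mean square log2 distance from the naive mean was 0.74 in right and 0.523 in left tenotomy legs, with the right leg farther in 5 of 5 pairs, and 0.557 in right and 0.517 in left casting legs, with the right leg farther in 6 of 9.

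The first question was how many genes moved in 1 model only, in both, or oppositely. In tenotomy mice 5845 genes differed between the legs (36.5% of those tested), 3289 higher and 2556 lower in the right leg. In casting mice 3624 genes differed (22.6%), 1635 higher and 1989 lower in the cast leg. The tenotomy differences were larger, with 1331 of the called genes past 1 on the log2 scale, in either direction, in tenotomy mice and 134 in casting mice. The difference between the models was itself called for 5434 genes (33.9%), 3111 higher and 2323 lower in tenotomy, and for 1774 of these called genes it was past 1 in either direction.

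By these 3 tests together, 3038 genes moved in tenotomy mice only (19% of tested genes), 1883 higher and 1155 lower in the right leg, with the difference between models called. Another 864 moved in casting mice only (5.39%), 510 higher and 354 lower in the cast leg. In both models and in the same direction moved 949 genes (5.92%), 357 higher and 592 lower, and in opposite directions 984 genes (6.14%), 625 of them higher in tenotomy and lower in casting and 359 the reverse. Of the 949 same-direction genes the size differed between models in 238, larger in tenotomy in 216 and in casting in 22. A further 874 genes were called in tenotomy alone and 827 in casting alone without a called difference between models, and these are not assigned to a model. Of the 1933 genes called in both models 49.1% went the same way. Pearson's r between the tenotomy and casting differences across all tested genes, which are not independent replicates and come from different animals, was -0.13.

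**Figure D1:**
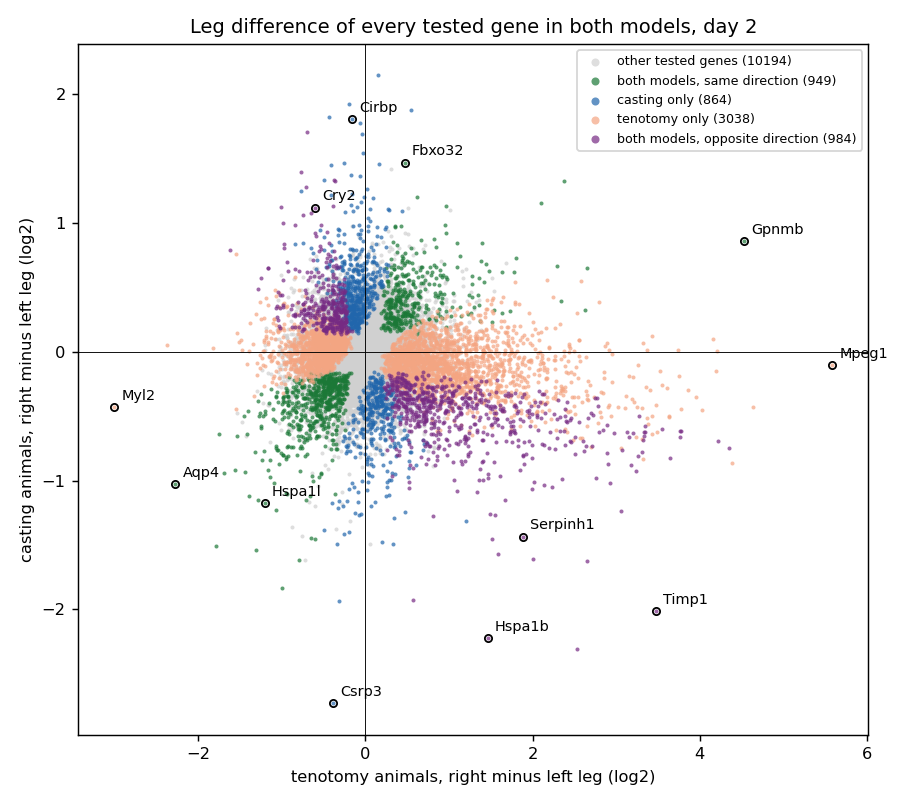
Each point is 1 of the 16029 tested genes, with the right minus left log2 difference in tenotomy mice on the x axis (5 pairs) and in casting mice on the y axis (9 pairs), coloured by class. The tenotomy axis spans more than the casting axis, and the 984 opposite-direction genes lie mostly at the lower right, where 625 are higher in tenotomy and lower in casting right legs.

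Genes of macrophages and monocytes led the genes that moved in tenotomy mice only. Mpeg1, which encodes the pore-forming protein perforin-2 of macrophages, had signals of 1126, 1019, 935, 1308 and 1429 in the right legs of animals 7, 8, 10, 33 and 37, against 41.4, 4.03, 22.6, 41.0 and 14.1 in their left legs. In casting mice Mpeg1 ran from 41.0 to 114 in cast legs (median 49.5), against 20.8 to 153 in control legs (median 49.5). The right tenotomy legs lay far above every other muscle, and the casting legs overlapped. The difference was 5.59 in tenotomy mice (5 of 5 pairs) and -0.10 in casting mice (higher in 5 of 9), and differed between models by 5.69 (SE 0.43, adjusted p = 7.36e-09). In whole muscle a change in the number of cells of a type and a change in RNA per cell cannot be told apart.

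Ctss, the lysosomal protease cathepsin S of antigen-presenting cells, had signals of 2142, 2027, 1703, 2421 and 2429 in right and 191, 90.1, 116, 215 and 95.5 in left tenotomy legs, in the same animal order. Casting legs held 168 to 456 (median 197) in cast and 142 to 593 (median 226) in control legs, so that the groups of the casting model overlapped. The difference between models was 4.31 (SE 0.27, adjusted p = 1.34e-09). The other genes at the top of this class were Ms4a7, a macrophage membrane protein (4.64 in tenotomy, -0.43 in casting), Chil3, a chitinase-like protein secreted by activated macrophages (4.39 and -0.86), Tyrobp, the signalling adaptor of myeloid receptors (4.03 and -0.45), and Wfdc17 (4.20 and -0.15), and each was higher in the right leg of 5 of 5 tenotomy mice. For Ms4a7 the models differed by 5.07, and by 3.24 over its averaged probe sets. Chil3 lay above the 40th percentile of the array in 2 of 5 left tenotomy legs, so that its difference rests on values near background there.

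Of 26 tested markers of macrophages and monocytes, 26 rose in right tenotomy legs, against 20.5% of all tested genes that rose there, while 1 rose and 8 fell in cast legs (10.2% and 12.4% of all tested genes). The median of the list was 3.27 in tenotomy and -0.43 in casting, beside 0.025 and -0.027 over all tested genes, and all 26 were called for the difference between models. Relative to naive muscle the mean of these markers was 3.11 in right tenotomy legs (range 2.78 to 3.27), -0.24 in left tenotomy legs, 0.35 in cast legs and 0.73 in casting control legs. Chemokines and their receptors followed, with 15 of 23 higher and 0 lower in right tenotomy legs and 0 higher and 4 lower in cast legs. Of 13 complement genes 11 rose and 1 fell in right tenotomy legs and 8 fell in cast legs, among them C1qa (3.18 in tenotomy and -0.88 in casting), a chain of the first complement component. Interferon-response genes rose in right tenotomy legs in 19 of 21 and in cast legs in 1, with 5 lower, and 14 of 15 immunoproteasome and antigen-processing genes rose in right tenotomy legs, including Cd74, the invariant chain of MHC class II (2.42 in tenotomy and -0.54 in casting).

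Markers of other blood cells were mostly not called. None of 12 lymphocyte markers and none of 2 erythroid markers was called by limma in any of these comparisons, and their medians for the difference between models were -0.065 and -0.052. At an unadjusted p under 0.05, 2 of the 12 lymphocyte and 0 of the 2 erythroid markers passed for the difference between models. Of 9 neutrophil markers 2 rose in right tenotomy legs, Csf3r (the receptor of granulocyte colony-stimulating factor, 2.39) and Il1r2, a decoy receptor of interleukin 1 (0.70), Ngp, a granule protein, fell (-1.19), and none was called in cast legs. S100a8, an abundant neutrophil protein, differed by 0.47 in tenotomy and 0.04 in casting without a call, and without tenotomy animal 33 its difference between models of 0.43 became 1.31 (adjusted p = 0.0085).

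Genes of cell division formed a second group of the tenotomy class. Of 37 cell cycle and DNA replication genes 31 rose and 0 fell in right tenotomy legs, beside 20.5% and 15.9% of all tested genes. Cast legs had 3 higher and 7 lower, beside 10.2% and 12.4%. The median was 1.44 in tenotomy and -0.19 in casting. Cdk1, the kinase that drives entry into mitosis, had signals of 117, 87.5, 77.0, 90.8 and 76.7 in right and 16.1, 1.18, 0.767, 14.9 and 1.06 in left tenotomy legs. In casting mice Cdk1 ran from 0.583 to 12.0 in cast and from 0.619 to 42.2 in control legs, and only 3 of 19 casting legs lay above the 40th percentile of their array. The right tenotomy legs did not overlap any other group. The difference between models of 4.07 (SE 0.59, adjusted p = 1.5e-05) therefore rests on low values outside the right tenotomy legs and is compressed by the added constant.

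Genes of energy metabolism fell in right tenotomy legs. All 42 tested genes of oxidative phosphorylation were lower in right tenotomy legs (15.9% of all tested genes fell there), none was called in casting mice, and 40 were called for the difference between models. Sdha, the catalytic subunit of succinate dehydrogenase, had signals of 2382, 3084, 3051, 2132 and 2632 in right and 4893, 4570, 5041, 4487 and 4446 in left tenotomy legs, which did not overlap. In casting mice Sdha ran from 2925 to 5108 (median 3578) in cast and from 2838 to 4619 (median 3721) in control legs, which overlapped almost wholly. The difference between models was -0.86 (SE 0.12, adjusted p = 8.13e-06) for Sdha and -0.87 (SE 0.12, adjusted p = 1.06e-05) for Ndufv1, a subunit of complex I.

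Both casting legs lay below the naive level for these genes. The mean of the oxidative phosphorylation genes relative to naive muscle was -0.93 in right tenotomy legs, -0.28 in left tenotomy legs, -0.62 in cast legs, -0.52 in casting control legs and 0.07 in sham muscle. General fibre markers moved with them, 9 of 12 lower in right tenotomy legs (median -0.54, against -0.67 for the oxidative phosphorylation genes) and none called in cast legs, and their part in this result was not tested. The oxidative phosphorylation list's difference between models was -0.56 by median and -0.33 with quantile normalization, and with the actin ratio held constant it was -0.41. Of 21 genes of fatty acid oxidation 18 fell in right tenotomy legs, beside 15.9% of all tested genes. In cast legs 3 rose and 2 fell, beside 10.2% and 12.4%. Acadm, the medium-chain acyl-CoA dehydrogenase, differed by -0.90 in tenotomy, where it was called, and by 0.0020 in casting.

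Slow-fibre genes led the genes that fell in tenotomy mice only. Myl2, the regulatory light chain of slow muscle, had signals of 216, 182, 174, 178 and 349 in right and 3425, 1722, 1926, 2199 and 620 in left tenotomy legs. In casting mice Myl2 ran from 3000 to 5428 (median 3580) in cast and from 3267 to 7393 (median 5442) in control legs, and naive muscle ran from 4555 to 7532. Every right tenotomy leg was below every left one, and every left tenotomy leg but that of animal 7 was below every casting leg. The difference was -3.01 in tenotomy and -0.43 in casting mice, and differed between models by -2.58 (SE 0.38, adjusted p = 1.62e-05).

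Myh7, the slow myosin heavy chain, had signals of 75.4, 39.9, 168, 152 and 478 in right and 2325, 333, 739, 526 and 536 in left tenotomy legs, against 2670 to 4558 in cast and 1070 to 6068 in casting control legs. The tenotomy legs overlapped, since the right leg of animal 37 was above the left leg of animal 8, but each right leg was below its own left leg. Relative to naive muscle Myl2 stood at -4.77 in right and -1.76 in left tenotomy legs, and Myh7 at -4.80 and -2.43. Actc1, the cardiac actin that skeletal muscle also makes, fell in right tenotomy legs (-1.54), and in casting mice it differed by 0.15. Of 16 slow-fibre genes 8 fell and 1 rose in right tenotomy legs, beside 15.9% and 20.5% of all tested genes. In cast legs 3 fell, beside 12.4%.

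Of 19 fast-fibre genes 15 fell in right tenotomy legs and 1 in cast legs, beside 15.9% and 12.4% of all tested genes. The difference between models was called for 7 (36.8%), near the 33.9% of all tested genes, among them Myh2 (-1.04 in tenotomy and -0.21 in casting). The medians were -0.55 in tenotomy and -0.21 in casting. With the actin ratio held constant the median difference between models of this list turned to 0.32 from -0.37, and that of 12 general fibre markers to 0.38 from -0.36. Myh4 was called in neither model (-0.47 in tenotomy and -0.28 in casting), with a difference between models of -0.18 (SE 0.23, adjusted p = 0.613) that became 0.76 (adjusted p = 0.0085) in that fit. Cd27, a receptor of the tumour necrosis factor family, and Gm15408 completed the lower genes of the tenotomy class (-1.55 and -1.27 in tenotomy), both at signals of at most 50.4 in the tenotomy legs.

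**Figure D2:**
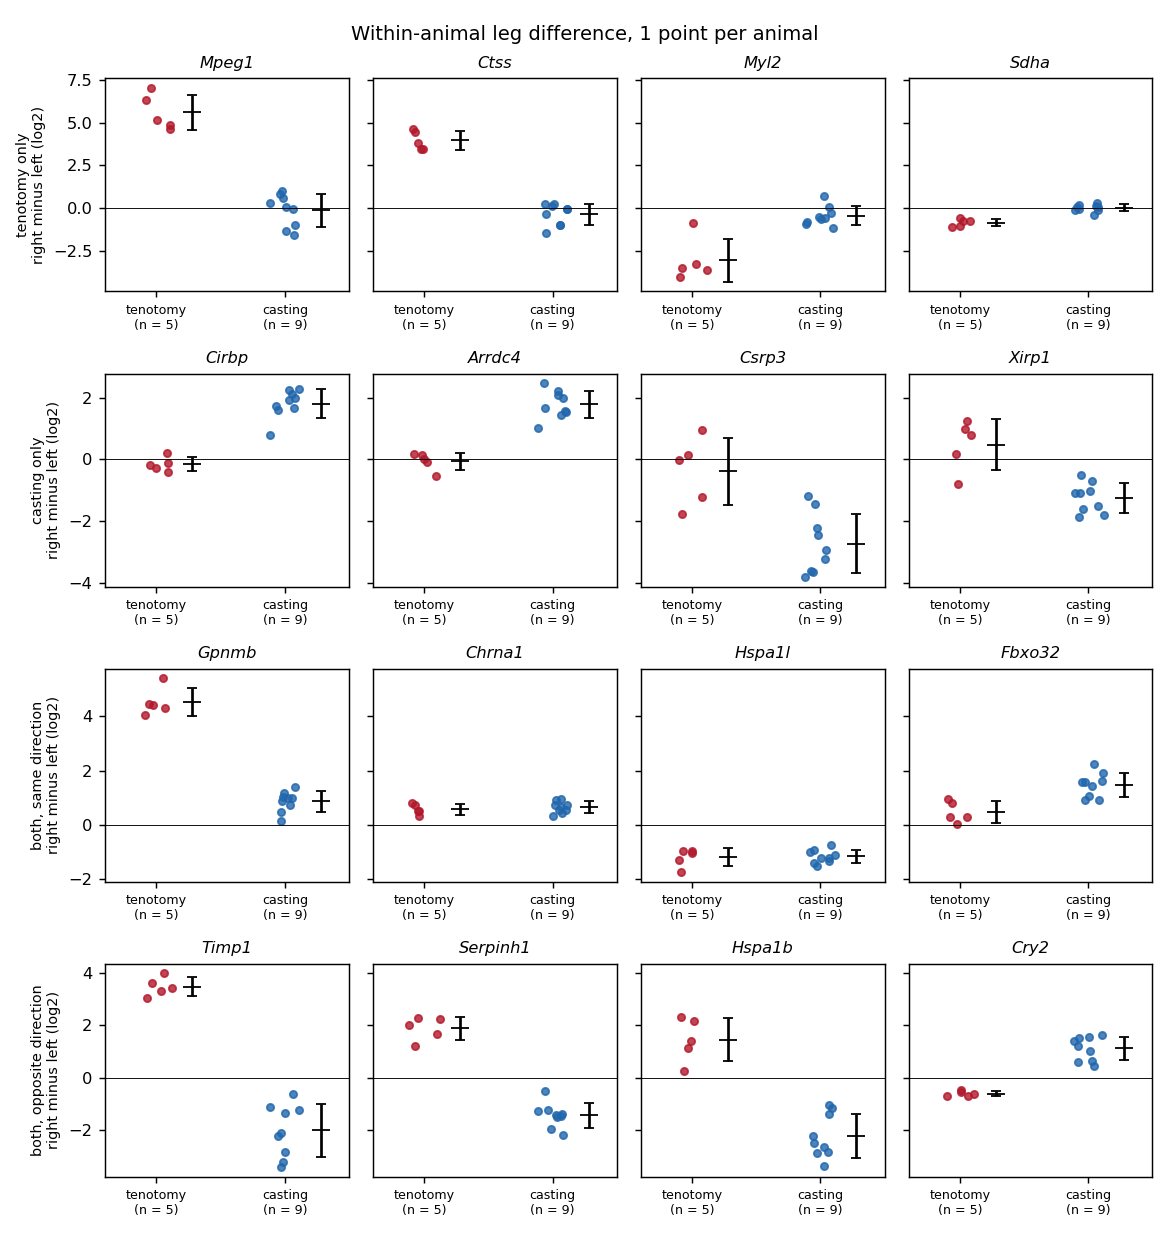
Each point is the right minus left log2 difference of 1 animal, in 5 tenotomy and 9 casting mice, with the mean and SD beside the points, for 4 genes of each class in rows. The tenotomy and casting points overlap for Myl2, Csrp3, Xirp1, Chrna1, Hspa1l and Fbxo32 and lie apart for the other genes drawn, with Timp1 between 3.05 and 3.99 in tenotomy and between -3.41 and -0.61 in casting.

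In casting mice only, Cirbp, Arrdc4, Depp1 and Rprd2 rose. Cirbp, an RNA-binding protein induced by mild cold, had signals of 153, 154, 175, 176 and 169 in right and 186, 176, 151, 233 and 184 in left tenotomy legs, which overlapped. In casting mice it ran from 320 to 674 (median 539) in cast legs, against 82.8 to 185 (median 159) in control legs, without overlap. The difference was -0.16 in tenotomy and 1.81 in casting mice (9 of 9 pairs), and differed between models by -1.97 (SE 0.19, adjusted p = 9.48e-08). Arrdc4, an alpha-arrestin that regulates glucose uptake, showed 93.7 to 225 in cast and 27.9 to 47.0 in control legs, and 24.6 to 45.8 in right and 33.7 to 48.9 in left tenotomy legs.

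Depp1, a target of FOXO transcription factors, had a casting difference of 1.93 (9 of 9 pairs) and a tenotomy difference of -0.20. Its signals were nevertheless 123 to 588 in right and 126 to 542 in left tenotomy legs, against 160 to 1298 in cast, 32.8 to 356 in casting control and 82.3 to 176 in naive legs. The means of both tenotomy legs thus lay above naive, by 1.06 in right and 1.26 in left legs, with ranges that overlapped naive and without a test. Their difference from each other was not called. Rprd2, a protein that binds the tail of RNA polymerase II, rose by 1.82 in cast legs and differed by -0.43 in tenotomy mice. With the probe sets of each gene averaged, the difference between models was -0.49 for Rprd2 (-2.26 with the brightest probe set) and -0.75 for Arrdc4 (-1.85). The transcripts 2900024J01Rik and 4933440N22Rik were 1.25 and 2.15 higher in cast legs, at signals of at most 41.2 in casting legs for 2900024J01Rik and 110 for 4933440N22Rik. Of 6 cold-inducible and alpha-arrestin genes 5 rose in cast legs, beside 10.2% of all tested genes. In right tenotomy legs 2 fell, beside 15.9%, namely Arrdc2 (-0.84 in tenotomy and 0.64 in casting) and Txnip (-0.41 and 0.37).

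Clock genes moved apart in the models. Of 19 genes of the circadian clock and its output 0 rose and 10 fell in right tenotomy legs, beside 20.5% and 15.9% of all tested genes. Cast legs had 9 higher and 2 lower, beside 10.2% and 12.4%. The difference between models was called for 14 (73.7%, against 33.9% of all tested genes). The list median was -0.41 in tenotomy and 0.27 in casting. Per animal the list median ran from -0.54 to -0.32 in tenotomy and from 0.08 to 0.47 in casting mice, without overlap. Cry2, a repressor of the clock, had signals of 121, 149, 132, 139 and 173 in right and 198, 217, 217, 217 and 241 in left tenotomy legs. It ran from 192 to 445 (median 296) in cast and from 95.1 to 192 (median 125) in casting control legs, where the highest control leg, at 191.9, was just above the lowest cast leg, at 191.5. The difference was -0.61 in tenotomy (0 of 5 pairs higher) and 1.12 in casting mice (9 of 9), and differed between models by -1.73 (SE 0.18, adjusted p = 2.76e-07).

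Ciart, another repressor of the clock, rose in cast legs by 1.22 (9 of 9 pairs) and differed by -0.41 in tenotomy mice without a call (lower in 5 of 5). Cry1 fell in both models (-0.56 and -0.41). Time of day at collection is not given in the sources used here and its part was not tested. The 90 bases before the start of Ciart that hold its 3 E-boxes, CACGTG, the sequence bound by the CLOCK and BMAL1 proteins, are printed with the motif in capitals (RefSeq, GRCm38.p6, chr3:95882261-95882350, minus strand, 5′ to 3′). They are shown because Ciart had the largest difference between models among clock genes of the casting class.
Ciart: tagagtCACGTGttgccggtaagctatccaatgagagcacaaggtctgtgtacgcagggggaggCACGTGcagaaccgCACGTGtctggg
The E-box was searched on both strands in the window from 250 bases before to 50 after each start. It was present in 5 of 17 clock genes with a window (29.4%), against 10.7% of tested genes and 8.09% of all genes with a window. The E-box was also in 4 of 17 immediate early genes (23.5%) and in 12.6% of the genes that moved in casting mice only.

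Among 18 stretch-responsive sarcomere genes 3 moved in casting mice only and 5 in tenotomy mice only, beside 5.39% and 19% of all tested genes. In both models 4 moved the same way and 2 oppositely, beside 5.92% and 6.14%. Csrp3, the muscle LIM protein of the Z-disc and a sensor of stretch, had signals of 1042, 761, 808, 1431 and 1671 in right and 3551, 691, 1885, 1460 and 869 in left tenotomy legs, with overlap and no common direction (higher right in 2 of 5). In casting mice Csrp3 ran from 273 to 1541 (median 594) in cast legs, against 3108 to 6558 (median 4198) in control legs, without overlap. The difference was -0.39 in tenotomy and -2.73 in casting mice (0 of 9 higher), and differed between models by 2.35 (SE 0.44, adjusted p = 0.000262). Relative to naive muscle, Csrp3 stood at -1.43 in cast legs and 1.32 in casting control legs, on either side of the naive level. Ankrd2, a stretch-responsive ankyrin repeat protein, differed likewise (-0.31 in tenotomy, -1.94 in casting, and 0.84 above naive in casting control legs).

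Xirp1, an actin-binding protein of muscle repair, fell by 1.24 in cast legs (9 of 9 pairs) and differed by 0.48 in tenotomy (higher in 4 of 5). Outside the stretch-responsive list, the other leading genes that fell in casting mice only were Dusp18, a dual-specificity phosphatase (-1.49 in casting and 0.34 in tenotomy), Myh10, a non-muscle myosin (-1.48 and 0.20), and Esrrg, a nuclear receptor of oxidative metabolism (-1.29 and 0.34). The difference between models of 1.63 for Esrrg was 0.75 over its averaged probe sets. Of 18 stretch-responsive genes 10 fell and 1 rose in cast legs, beside 12.4% and 10.2% of all tested genes. Right tenotomy legs had 9 lower and 2 higher, beside 15.9% and 20.5%. The medians of this list were -0.47 in tenotomy and -0.31 in casting. Among its members Ldb3, Smpx, Fhl1 and Otud1 fell in both models, whereas Mustn1 rose in tenotomy (2.12) and differed by -0.08 in casting. With the actin ratio held constant the tenotomy falls of Ldb3, Smpx, Fhl1 and Otud1 were not called (adjusted p from 0.11 to 0.734).

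The 26S proteasome degrades proteins tagged with ubiquitin. Of 34 tested 26S proteasome subunits 29 rose and 1 fell in cast legs, beside 10.2% and 12.4% of all tested genes. Right tenotomy legs had 16 higher and 1 lower, beside 20.5% and 15.9%. In both models 14 moved in the same direction, beside 5.92%. The median was 0.39 in casting and 0.17 in tenotomy, and the median difference between models of -0.24 became -0.06 with quantile normalization. Psmd13, a subunit of the regulatory particle, rose by 0.30 in tenotomy and 0.35 in casting, with a difference between models of -0.04 (SE 0.10, adjusted p = 0.786). Psmd5, a chaperone that holds back assembly of the proteasome, moved the other way in casting (0.71 in tenotomy and -0.21 in casting).

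Fbxo32 had signals of 1235, 1587, 2168, 1357 and 2415 in right and 1216, 905, 1116, 1111 and 1994 in left tenotomy legs, and ran from 1670 to 5663 (median 3944) in cast and from 883 to 2502 (median 1220) in casting control legs. The groups overlapped in each model, while the right leg was higher in 5 of 5 tenotomy and 9 of 9 casting pairs. The rise was 0.47 in tenotomy and 1.47 in casting mice, and the difference between models was -1.001 (SE 0.20, adjusted p = 0.00047). With the actin ratio held constant the difference between models was -0.70 (adjusted p = 0.0938). Trim63 rose by 0.42 in tenotomy and 0.98 in casting, with a difference of -0.55 (SE 0.18, adjusted p = 0.0208) that did not keep its call in 6 of the alternative settings, with adjusted p from 0.00202 to 0.631 over all of them. Of 23 muscle ubiquitin ligases 5 rose and 11 fell in right tenotomy legs, beside 20.5% and 15.9% of all tested genes. Cast legs had 7 higher and 2 lower, beside 10.2% and 12.4%. The difference between models was called for 52.2% of these ligases, against 33.9% of all tested genes.

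Of 19 genes of the neuromuscular junction and denervation, 5 rose and 3 fell in right tenotomy legs, beside 20.5% and 15.9% of all tested genes. In cast legs 5 rose and 2 fell, beside 10.2% and 12.4%. The difference between models was called for 31.6% of the list, near the 33.9% of all tested genes. Of the list 2 genes moved the same way in both models, Chrna1 and Gadd45a. The transcription factor Runx1, which denervation induces, rose by 2.86 in tenotomy and differed by 0.04 in casting. Chrna1, the alpha subunit of the muscle acetylcholine receptor, had signals of 221, 211, 287, 235 and 281 in right and 154, 171, 162, 142 and 195 in left tenotomy legs, and 218 to 288 in cast and 146 to 187 in casting control legs. The legs did not overlap within either model, and the same legs overlapped between the models. Chrna1 rose by 0.57 in tenotomy and 0.64 in casting, and the difference between models was -0.07 (SE 0.12, adjusted p = 0.695). Relative to naive muscle Chrna1 stood at -0.01 in right and -0.58 in left tenotomy legs, and at 0.06 in cast and -0.59 in casting control legs.

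Gadd45a, a stress gene induced in denervated and immobilised muscle, rose by 0.62 in tenotomy and 1.201 in casting, with a difference of -0.58 (SE 0.23, adjusted p = 0.0587). Ctsl, the lysosomal protease cathepsin L, rose by 0.72 in tenotomy and 0.49 in casting (difference 0.23, SE 0.11, adjusted p = 0.118). The Gadd45a difference was called in 4 of the alternative settings (smallest adjusted p = 0.0115) and that of Ctsl with quantile normalization (adjusted p = 0.00555). For both the p misses the threshold here, which does not show that the models act alike. Stk11ip, a binding partner of the kinase LKB1 (0.96 and 1.14), Tk1, the cytosolic thymidine kinase (0.97 and 0.92), and Hgs, an endosomal sorting protein (0.82 and 0.88), were the other leading genes higher in both.

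Gpnmb, a glycoprotein of phagocytes, rose in both models by very different amounts. Its signals were 845, 866, 942, 1255 and 1059 in right and 46.4, 36.8, 38.8, 59.3 and 21.0 in left tenotomy legs. They ran from 113 to 193 (median 158) in cast legs, against 66.0 to 148 (median 74.3) in control legs. The rise was 4.54 in tenotomy and 0.86 in casting mice (9 of 9 pairs), and the difference between models was 3.67 (SE 0.20, adjusted p = 1.34e-09). Gpnmb was the only macrophage marker of the 26 that rose in cast legs.

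Among genes lower in both models, Hspa1l, a testis-rich member of the HSP70 family that lies next to Hspa1a and Hspa1b, had signals of 46.4, 69.4, 66.1, 69.5 and 82.3 in right and 165, 150, 167, 139 and 164 in left tenotomy legs. Cast legs held 51.0 to 96.7 and casting control legs 136 to 203, so that right and left legs did not overlap in either model. Hspa1l fell by 1.204 in tenotomy and 1.18 in casting, with a difference between models of -0.03 (SE 0.15, adjusted p = 0.923). Aqp4, the water channel of fast fibres, fell by 2.28 in tenotomy and by 1.03 in casting (difference -1.25, SE 0.24, adjusted p = 0.000303), and the transcripts 2310065F04Rik (-1.79 and -1.51) and 1110020A21Rik (-1.07 and -1.23) were the others. Relative to naive muscle Aqp4 was lower in all 4 groups of legs, at -3.11 in right and -0.84 in left tenotomy legs and at -2.61 in cast and -1.50 in casting control legs.

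Genes of matrix turnover, chaperones and cytokine feedback led the genes that moved oppositely. Timp1, a secreted inhibitor of matrix metalloproteinases, had signals of 655, 338, 228, 487 and 444 in right and 49.1, 30.7, 24.0, 41.6 and 24.3 in left tenotomy legs. In casting mice it ran from 22.4 to 111 (median 43.6) in cast legs, against 60.5 to 565 (median 186) in control legs. Right legs were above left legs without overlap in tenotomy, and in casting the control legs were the higher ones with overlap. The difference was 3.48 in tenotomy (5 of 5 pairs higher) and -2.01 in casting mice (0 of 9), and differed between models by 5.50 (SE 0.38, adjusted p = 2.6e-09).

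Serpinh1, the collagen chaperone HSP47, had signals of 1986, 1297, 755, 1352 and 1050 in right and 407, 269, 324, 416 and 258 in left tenotomy legs, and 187 to 732 (median 313) in cast against 692 to 1555 (median 866) in casting control legs. The difference was 1.89 in tenotomy and -1.43 in casting mice, and differed between models by 3.32 (SE 0.21, adjusted p = 1.34e-09). Socs3, a feedback inhibitor of cytokine signalling, went the same way (2.65 in tenotomy and -1.63 in casting), as did Gm13889 (1.59 and -1.57) and Ccl2, the chemokine that draws monocytes (3.06 and -1.24, lower in 8 of 9 casting pairs, and above the 40th percentile of the array in 0 of 5 left tenotomy legs). Mt1 and Mt2, the metallothioneins, rose by 2.60 and 2.70 in tenotomy and differed by -0.67 and -0.74 in casting without a call.

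Collagen and matrix genes were opposite as a group. Of 35 tested, 30 rose and 0 fell in right tenotomy legs, beside 20.5% and 15.9% of all tested genes. Cast legs had 0 higher and 22 lower, beside 10.2% and 12.4%. For the difference between models 32 were called, beside 33.9%, and 20 moved oppositely, beside 6.14%. The medians were 1.13 in tenotomy and -0.42 in casting. Col3a1, the chain of type III collagen, had signals of 8269, 8173, 8143, 6458 and 6891 in right and 3887, 1791, 2293, 2424 and 2151 in left tenotomy legs, and 2058 to 4305 in cast and 2623 to 6710 in control legs. It rose by 1.64 in tenotomy and fell by 0.45 in casting. Lox, which cross-links collagen, rose by 3.74 in tenotomy only and differed by 0.01 in casting. Of 27 matrix genes of healing tissue 23 rose and 1 fell in right tenotomy legs and 4 rose and 11 fell in cast legs, with Cthrc1, a secreted protein of repair fibroblasts, at 4.35 in tenotomy and -0.75 in casting, and near background in 4 of 5 left tenotomy legs. Of 12 fibroblast markers 9 rose in right tenotomy legs and 4 fell in cast legs, and of 9 tenocyte markers 5 rose in right tenotomy legs and 3 fell in cast legs. The part of cell number in the matrix result was not tested.

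**Figure D3:**
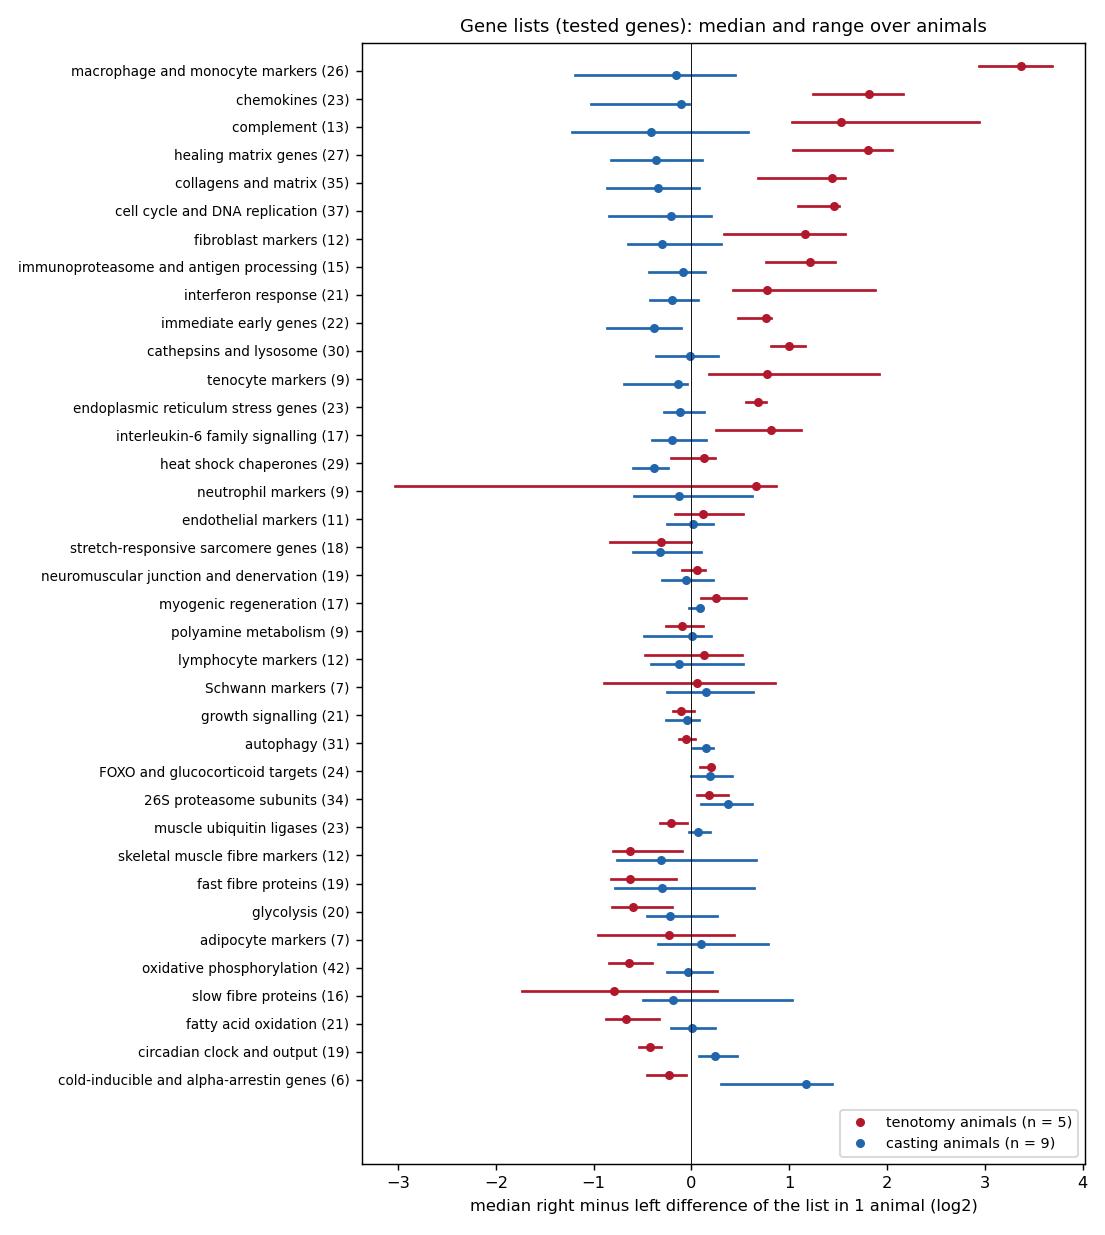
For each list of at least 5 tested genes the dot is the median and the line the range over animals of the list's median right minus left log2 difference, in 5 tenotomy mice (red) and 9 casting mice (blue). Macrophage markers lie between 2.94 and 3.69 in tenotomy and between -1.19 and 0.45 in casting, and clock genes lie on opposite sides of 0.

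Heat shock chaperones fell in cast legs and split in tenotomy. Of 29 tested, 2 rose and 21 fell in cast legs, beside 10.2% and 12.4% of all tested genes. Right tenotomy legs had 10 higher and 6 lower, beside 20.5% and 15.9%, and 10 moved oppositely, beside 6.14%. Hspa1b, the stress-inducible HSP70, had signals of 203, 321, 227, 242 and 223 in right and 166, 67.1, 102, 89.4 and 41.7 in left tenotomy legs. It ran from 47.7 to 145 (median 83.02) in cast legs, against 179 to 1081 (median 398) in control legs. The legs did not overlap in either model. The difference was 1.46 in tenotomy (5 of 5) and -2.22 in casting mice (0 of 9), and differed between models by 3.69 (SE 0.37, adjusted p = 1.76e-07). With the actin ratio held constant Hspa1b differed by 0.99 in tenotomy (adjusted p = 0.191) and its difference between models was 3.22 (adjusted p = 0.000321). Hspa1a is nearly identical in sequence, so that the probe sets of both genes cannot be assumed to measure separate transcripts, and Hspa1a differed by 0.57 in tenotomy and -1.93 in casting.

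Dnaja1 and Hsp90aa1, a co-chaperone of HSP70 and the inducible HSP90, were opposite as well (0.73 and -0.53, 1.15 and -0.85). Hspb1, the small heat shock protein HSP27 (0.11 in tenotomy and -0.61 in casting), and Dnaja4, a co-chaperone (-0.20 and -1.06), fell in casting only. The bases before the starts of 4 of these genes are shown because they hold the heat shock element, the sequence that HSF1 binds, searched as GAANNTTC or TTCNNGAA on both strands and printed in capitals (RefSeq, GRCm38.p6, 5′ to 3′). Hspa1b lies at chr17:34959294-34959383 (minus strand), Dnaja1 at chr4:40722303-40722392 (plus strand), Hspb1 at chr5:135887771-135887860 (plus strand) and Dnaja4 at chr9:54699447-54699536 (plus strand).
Hspa1b: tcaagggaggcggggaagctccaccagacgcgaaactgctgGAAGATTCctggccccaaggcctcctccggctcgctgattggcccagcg
Dnaja1: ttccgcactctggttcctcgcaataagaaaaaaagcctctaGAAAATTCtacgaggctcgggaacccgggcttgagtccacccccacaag
Hspb1: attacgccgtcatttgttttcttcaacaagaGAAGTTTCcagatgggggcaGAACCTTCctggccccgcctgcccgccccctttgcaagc
Dnaja4: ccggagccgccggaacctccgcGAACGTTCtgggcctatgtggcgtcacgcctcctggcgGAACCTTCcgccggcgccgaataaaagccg
The element was in 16 of 24 chaperone genes with a window (66.7%), against 14.7% of tested genes and 17.0% of all genes with a window, and in 5 of 9 chaperone genes that moved oppositely (55.6%). A match describes these letters and not binding.

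Genes of the endoplasmic reticulum and immediate early genes were opposite in part. Of 23 endoplasmic reticulum stress genes 17 rose and 1 fell in right tenotomy legs, beside 20.5% and 15.9% of all tested genes. Cast legs had 5 higher and 10 lower, beside 10.2% and 12.4%, and 11 were opposite, beside 6.14%. Among the opposite ones was Pdia4, a protein disulfide isomerase (1.41 in tenotomy and -0.85 in casting, with a difference of 2.26 that was 0.89 over its averaged probe sets). Chac1, which degrades glutathione, rose in casting only (1.46, with 0.16 in tenotomy). Of 22 immediate early genes 14 rose and 1 fell in right tenotomy legs and 2 rose and 10 fell in cast legs, and 8 were opposite. Fos, a subunit of the AP-1 transcription factor, had signals of 268, 135, 146, 286 and 246 in right and 96.2, 33.0, 42.1, 44.3 and 44.0 in left tenotomy legs, and 31.2 to 410 (median 50.4) in cast against 124 to 475 (median 165) in control legs. It differed by 2.01 in tenotomy and by -1.61 in casting, with 1 of 9 cast legs higher.

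In the reverse orientation, Mss51, a mitochondrial protein of fast muscle that responds to myostatin, had signals of 959, 1291, 1137, 875 and 756 in right and 1518, 2067, 1993, 1942 and 2270 in left tenotomy legs, without overlap. In casting mice it ran from 2192 to 4345 (median 3894) in cast legs, against 1283 to 2864 (median 2266) in control legs. The difference was -0.97 in tenotomy and 0.84 in casting mice, and differed between models by -1.81 (SE 0.15, adjusted p = 2.41e-08). Art3, a membrane protein of the ADP-ribosyltransferase family (-0.94 and 0.70), Pdzd3, a scaffold protein (-1.02 and 1.13, at signals of at most 48.2), and the transcripts 4833418N02Rik (-0.77 and 1.40) and Atcayos (-0.72 and 1.28) were the other leading genes of this orientation. For Art3 the models differed by -1.64, and by -0.53 over its averaged probe sets. Hdac4, a histone deacetylase of denervated muscle, rose in casting (0.95) and differed by -0.33 in tenotomy, and Myog, the myogenic transcription factor, rose in tenotomy (1.95) and differed by -0.19 in casting.

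The signals of the 4 groups of legs place the opposite movement relative to naive muscle. For the 625 genes higher in tenotomy and lower in casting, the median over genes relative to naive muscle was 0.75 in right and -0.22 in left tenotomy legs, -0.05 in cast legs and 0.42 in casting control legs. The right leg was farther from naive than the left in 79.8% of them in tenotomy mice and the cast leg farther than the control leg in 27.4% in casting mice, against 63.3% and 55.5% of all tested genes. For the 359 genes lower in tenotomy and higher in casting, the median was -0.34 in right and 0.12 in left tenotomy legs, 0.23 in cast legs and -0.08 in casting control legs. The right leg was farther from naive in 64.6% of these in tenotomy mice and the cast leg in 61.3% in casting mice. For the 949 genes that moved the same way these shares were higher, 82.4% and 87.7% of the genes that rose and 84.5% and 88.3% of those that fell. Timp1 was 2.26, Hspa1b 2.07, Socs3 1.42 and Csrp3 1.32 above naive in casting control legs, and Hspa1b reached 641 in 1 naive muscle, above 6 of the 9 casting control legs. These levels share the arrays that defined the classes and carry no test. The naive muscles came from other mice, so that a cohort shift and an effect on both legs cannot be told apart.

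**Figure D4:**
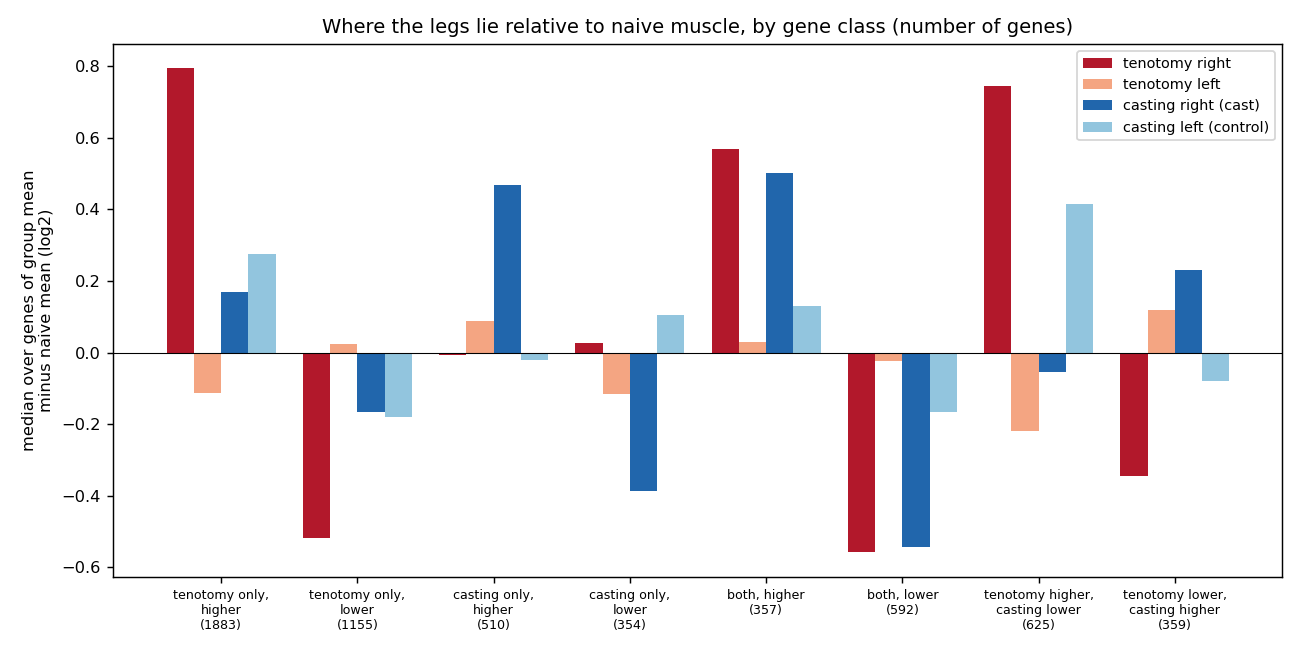
Bars give the median over genes of the group mean minus the naive mean (log2) for right and left tenotomy legs, cast legs and casting control legs, by class and direction, with the number of genes. In the 625 genes higher in tenotomy and lower in casting the casting control legs stand at 0.42 and the cast legs at -0.05.

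**Figure D5:**
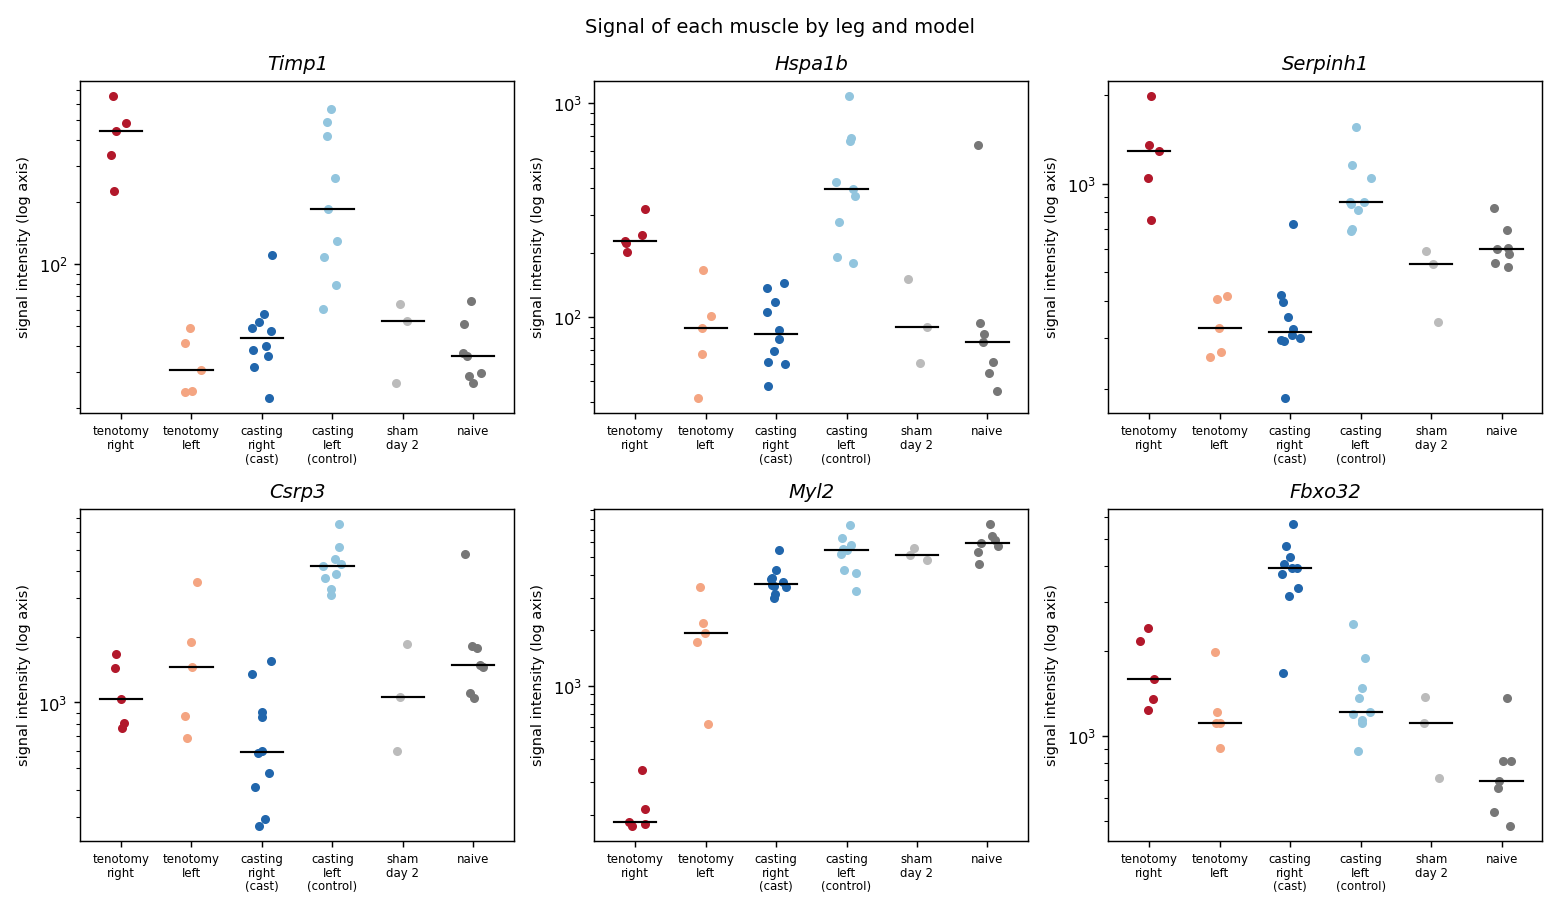
Each point is the signal of 1 muscle on a log axis, by leg group, with sham muscle at day 2 (n = 3) and naive muscle (n = 7) on the right, and the line is the median. For Timp1, Hspa1b, Serpinh1 and Csrp3 the median of the casting control legs lies above that of the cast legs, with overlapping legs for Timp1 and Serpinh1, while for Myl2 both tenotomy legs lie below the other groups in most muscles.

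With the legs as the sample labels name them, the tenotomy difference is left minus right and changes sign, and the difference between models becomes that value minus the casting value. It was called for 5550 genes (34.6%), 2467 higher and 3083 lower. On that reading the 949 genes given above as moving the same way are the opposite ones and all 949 were called, and the 984 given as opposite move the same way, with 395 called for a difference in size. Of the tenotomy-only and casting-only genes 2338 of 3038 and 363 of 864 were called in it. Fbxo32 then differed between models by -1.94 (adjusted p = 3.36e-07), Chrna1 by -1.21 (adjusted p = 2.1e-07) and Timp1 by -1.47 (adjusted p = 0.00414), whereas Hspa1b (0.76, adjusted p = 0.126) and Serpinh1 (-0.45, adjusted p = 0.109) were not called.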

How the data were processed

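RNA was isolated by Trizol and RNeasy, labelled with biotin and hybridised to Affymetrix arrays, per the labels' protocols. The authors deposited signal intensities on a linear scale, made with MAS5 and GCOS, per the submitters' processing notes, with versions not given in the sources used here. The mean signal of an array, with 2 percent trimmed from either end, was 99.955 to 99.965, so the arrays had been scaled to a common mean. Signals are relative, and the number of arrays limits the precision. Of 45101 probe sets 34958 listed 1 gene in the platform annotation, 932 several and 9211 none, and 34754 of those with 1 gene were found in the RefSeq gene table. Probe sets above their array's 40th percentile in at least 5 arrays were kept, the brightest per gene, which gave 16029 of 18194 genes.

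Signals plus 3.982 (their 20th percentile) were taken to log2 and fitted with limma 3.58.1 in R 4.3.3 (lmFit, eBayes with trend), with a fixed effect for each animal and a right minus left effect for each model, over 28 arrays (the cast leg without a partner was left out of the fit), and p-values were adjusted by Benjamini-Hochberg. SE and adjusted p-values in the text come from this fit. Pairs came from the animal numbers in the labels. The residual correlation between legs of the same animal averaged 0.0835 in tenotomy (0.0345 to 0.118 over 5 pairs) and 0.0777 in casting (-0.00128 to 0.345 over 9 pairs). P-values set an effect against the spread of the leg difference between these animals. That spread was estimated jointly from the tenotomy and casting pairs and moderated across genes, so that neither model has a spread of its own. In simulated data with 16029 genes, 50 genes each were changed by 0.5, 1, -1 and 2 on the log2 scale. The difference between models was recovered for 12% of genes changed by 0.5, 64% of those changed by 1 and 82% of those changed by 2. Only 120 genes were called there, against 5434 in the data, so that the adjusted threshold was stricter. These shares therefore do not give the recovery in the data.

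Genes were named by rule, with the same sign in every pair of each model that was called: the 6 higher and 5 lower of tenotomy only and the 5 and 5 of casting only with the largest difference between models, the 4 and 4 of the same direction and the 5 and 5 of opposite direction with the largest smaller change, a set of atrophy and stress genes whatever their result, and for each list the 2 members with the largest called difference and the 2 same-direction members closest to no difference. Other list members named were chosen after their values were seen. The members and lists were chosen with earlier results of these data known. The alternatives were other constants added before the log, quantile normalization, other filters, averaging the probe sets of each gene, unpaired and random-block fits, array weights, robust moderation, the actin ratio as covariate, and leaving out each animal.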

Additional observations from a re-analysis of the deposited data

Results flagged for a closer look

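In some genes every tenotomy pair and every casting pair moved in opposite directions, with the difference between models called in limma (adjusted p under 0.05 in each). Over all tested genes 445 did so (2.78%). The 17 named here were sought only among genes named in the text, and 10 of them were named by a rule that required opposite calls with the same sign in every pair, so that for these the pattern was fixed by the choice. Those higher in tenotomy were Timp1 (difference between models 5.50), Socs3 (4.28), Hspa1b (3.69), Serpinh1 (3.32), Gm13889 (3.16), Hsp90aa1 (1.99), Dnaja1 (1.26) and Psmd5 (0.92). Those lower in tenotomy were 4833418N02Rik (-2.16), Pdzd3 (-2.14), Atcayos (-1.999), Mss51 (-1.81), Cry2 (-1.73), Art3 (-1.64), Ciart (-1.63), Arrdc2 (-1.49) and Txnip (-0.77). The leg difference of the actin 3' to 5' log2 ratio also differed between models, by 0.81, and over all tested genes 5434 differed between models.

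Single animals stood far from the others of their model in the right minus left difference, in 16 of 180 groups examined (8.89%, against 5.97% over all tested genes). Chance gives about 1 in 20. Tenotomy animal 37 stood at -0.82 for Myl2, where the others were between -3.97 and -3.21. Tenotomy animal 7 stood apart for Cd27 (-0.54), Hspb1 (-0.46) and Otud1 (-1.68), tenotomy animal 8 for Ciart (-0.78) and Cthrc1 (5.36), and tenotomy animal 33 for S100a8 (-3.03, the others between 0.75 and 1.76). Casting animal P-01 stood apart for Cirbp (0.78, the others between 1.60 and 2.27), Cd74 (0.89), Perm1 (0.41) and Tfrc (0.25). Casting animal P-02 stood apart for Gm13889 (-3.88), Mt1 (-3.62) and Myh7 (2.08), casting animal P-06 for Arrdc2 (2.11) and casting animal P-09 for Ngp (1.30).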

How the results depend on the processing

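With the actin ratio as covariate beside the replicate block, 3351 genes were called in tenotomy, 3317 in the contrast of the labelled legs, 1812 in tenotomy only and 492 in the same direction in both, while 3642 were called for the difference between models and 697 moved oppositely. In that fit the difference between models turned for Myh4 (0.76), Ldb3 (0.0028), the median of the glycolysis list (0.10, from -0.39) and that of the growth signalling list (0.0027, from -0.17), and the calls of Fbxo32 (adjusted p = 0.0938), Ankrd2 (0.078), Hdac4 (0.0625), Arrdc2 (0.0746), Dnaja4 (0.0677), Myh2 (0.968), Trim63 (0.631), Gm15408 (0.0737), Il1r2 (0.593), Otud1 (0.231) and Ldb3 (0.995) were lost. The tenotomy difference itself was no longer called in that fit for, among others, Ldb3 (adjusted p = 0.11), Smpx (0.216), Fhl1 (0.734), Otud1 (0.259), Tk1 (0.813), Stk11ip (0.0832), Psmd13 (0.322), Arrdc2 (0.645), Txnip (0.294), Gm13889 (0.0527) and Hspa1b (0.191). The cause was not tested. With no replicate block 5114 genes were called for the difference between models, 5550 in tenotomy, 3492 in casting and 797 moved oppositely, each within 1.5 times the paired count. Leaving out 1 animal at a time gave 4843 to 5450 genes for the difference between models, 5116 to 6006 in tenotomy, 3041 to 3817 in casting, 5007 to 5534 for the labelled legs, 2649 to 3268 in tenotomy only, 731 to 931 in casting only, 818 to 1016 in the same direction and 739 to 1106 in opposite directions. Quantile normalization gave 49.6% of the called differences as higher in tenotomy, against 57.3%, and brought the differences of Gadd45a (adjusted p = 0.0294) and Ctsl (adjusted p = 0.00555) past the threshold. Gadd45a was also called without tenotomy animal 10, casting animal P-01 (adjusted p = 0.0115) or casting animal P-02. The calls of Il1r2, Ldb3, Otud1, Trim63, Myh2 and Gm15408 for the difference between models were also lost when some single animals were left out. Signals near background in at least 1 group of legs limit Cdk1, Cd27, Gm15408, Pdzd3, 4933440N22Rik, 2900024J01Rik, Ccl2, Chil3, Cthrc1 and Csf3r, and adding 16 before the log brought the difference between models of Cdk1 to 2.58 and of Ccl2 to 2.83.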

Other observations

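Counts of called genes are given here for the groups not described above, beside 20.5% higher and 15.9% lower in tenotomy, 10.2% higher and 12.4% lower in casting and 33.9% called for the difference between models over all tested genes. The difference between models was called for 70% of the lysosomal, 75% of the glycolysis, 66.7% of the FOXO and glucocorticoid, 58.8% of the myogenic, 55.6% of the polyamine and 48.4% of the autophagy genes. It was called for 35.3% of the interleukin-6 family, 33.3% of the growth signalling, 28.6% of the adipocyte, 27.3% of the endothelial and 14.3% of the Schwann cell genes, shares near or below that of all tested genes. Of 30 genes of cathepsins and the lysosome 24 rose and 1 fell in right tenotomy legs, and 6 rose and 6 fell in cast legs, with a median of 1.05 in tenotomy and -0.03 in casting. Of 20 glycolysis genes 5 rose and 14 fell in right tenotomy legs and 1 rose and 5 fell in cast legs. Of 31 autophagy genes 5 rose and 8 fell in right tenotomy legs and 10 rose and 4 fell in cast legs, and of 24 targets of FOXO and glucocorticoids 9 rose and 4 fell in tenotomy and 10 rose and 2 fell in casting. Of 17 interleukin-6 family genes 9 rose and 3 fell in tenotomy and 2 rose and 3 fell in casting, and of 17 genes of myogenic regeneration 7 rose and 2 fell in tenotomy and 4 rose and 3 fell in casting. Of 21 growth signalling genes 5 rose and 8 fell in tenotomy and 3 rose and 5 fell in casting, and of 9 polyamine genes 2 rose and 3 fell in tenotomy and 2 rose and 2 fell in casting. Of 11 endothelial markers 2 rose and 2 fell in tenotomy and 1 rose and 2 fell in casting, of 7 adipocyte markers 2 fell in tenotomy and 1 rose in casting, and of 7 Schwann cell markers 2 rose in casting and none was called in tenotomy.

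Some genes outside the naming rule were chosen after their values were seen. Rrad, a small GTPase of muscle, rose in tenotomy (2.53, 5 of 5 pairs) and fell in casting (-2.31, lower in 8 of 9 pairs), and relative to naive muscle it stood at 4.30 in right and 1.77 in left tenotomy legs and at 1.32 in cast and 3.59 in casting control legs. Tfrc, the transferrin receptor, fell in both models (-1.31 and -1.54), as did Perm1, a muscle regulator of oxidative genes (-1.39 and -1.12).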
